A study of Mus musculus with 18 samples.

Results

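The 10 genes described here are subunits of the transcription factor NF-kB and genes that its activity is known to switch on and that then restrain it or act beside it. They were chosen by symbol, with no measured value in the rule, but with earlier results of these data known. They are Nfkb1, Nfkb2, Relb, Nfkbia, Nfkbiz, Nfkbid, Bcl3, Tnfaip3, Ier3 and Zfp36, 10 of the 36655 distinct gene symbols in the expression table. RNA sequencing covered 18 libraries from all-iPS C57BL/6 mice, that is, mice whose every cell descends from induced pluripotent stem cells. Every group, controls included, carries doxycycline-inducible Oct4, Sox2, Klf4 and c-Myc in its genome. The blood cells were LT-HSC (stem cells that repopulate blood over the long term), ST-HSC (stem cells that do so for a short term) and MP (myeloid progenitors), each sequenced uncultured (0) and after 2 or 4 days of culture without doxycycline (N, titles 2N and 4N) or with it (D, titles 2D and 4D). Fibroblasts (Fib) were sequenced uncultured and at 2D and 4D. The study thereby asks what induction of the 4 factors does to blood cells beyond what culture does. In the 6 N libraries the doxycycline field says yes, against both the titles and the series design, and groups follow the titles. The labels used here give neither the age of the mice nor the sorting markers. Each condition is 1 library: 25 hand-picked cells amplified by oligo-dT priming and PCR for blood, and bulk RNA by a standard route for fibroblasts, so library method and lineage cannot be told apart. Cell types and days stand in for replicates in the tests, and the p-values measure the spread between those.

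NF-kB dimers wait in the cytoplasm bound to IkB inhibitors, and signals from cytokine or microbial receptors activate a kinase complex that marks the inhibitor for destruction. The freed dimers enter the nucleus and bind kappaB elements in the promoters of inflammatory and survival genes, including those of their own inhibitors and precursors, which gives the pathway its negative feedback. In blood stem and progenitor cells the pathway is known for its part in survival and in emergency production of myeloid cells. Among the 10 genes, Nfkb1 and Nfkb2 encode the precursors of the DNA-binding subunits p50 and p52, and Relb encodes the partner of p52 in the non-canonical branch. Nfkbia encodes IkB alpha, the classical inhibitor, while Nfkbiz, Nfkbid and Bcl3 encode nuclear IkB proteins that tune target choice. Tnfaip3 encodes A20, an enzyme that edits ubiquitin and shuts down the upstream signal. Ier3 is an early-response gene linked to cell survival, and Zfp36 encodes tristetraprolin, which speeds the decay of cytokine mRNAs.

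RefSeq promoter windows on mouse build GRCm38.p6, which cover 250 bases before to 50 bases from the start site on, were at hand for 7 of the 10 genes. The kappaB consensus, a 10-base element, was searched on both strands. It occurred in at least 1 window of 6 of these 7 genes (Nfkbia, Tnfaip3, Nfkb2, Ier3, Nfkbid and Bcl3) and in none of Zfp36, against 9.55% of the 27025 genes in the promoter table and 8.46% of its 32851 windows of the same length. A match is a description of the letters and not a measured binding site. Printed as examples are the bases before the start site of 4 of the 6 genes with a match. These are read 5′ to 3′ on the gene's strand, with kappaB matches in capitals. They lie at chr12:55492648-55492897 on the minus strand for Nfkbia, chr10:19015411-19015660 on the minus strand for Tnfaip3, chr19:46304487-46304736 on the plus strand for Nfkb2 and chr17:35821463-35821712 on the plus strand for Ier3.
Nfkbia: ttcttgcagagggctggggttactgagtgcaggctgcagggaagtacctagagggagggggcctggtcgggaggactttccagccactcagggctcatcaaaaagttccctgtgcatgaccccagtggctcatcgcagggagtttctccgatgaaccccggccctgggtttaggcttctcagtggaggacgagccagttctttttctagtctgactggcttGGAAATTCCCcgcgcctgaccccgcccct
Tnfaip3: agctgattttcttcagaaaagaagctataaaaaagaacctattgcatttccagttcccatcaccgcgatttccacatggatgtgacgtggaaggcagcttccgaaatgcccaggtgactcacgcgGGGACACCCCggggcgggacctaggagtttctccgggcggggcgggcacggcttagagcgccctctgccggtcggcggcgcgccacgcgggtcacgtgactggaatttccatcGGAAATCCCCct
Nfkb2: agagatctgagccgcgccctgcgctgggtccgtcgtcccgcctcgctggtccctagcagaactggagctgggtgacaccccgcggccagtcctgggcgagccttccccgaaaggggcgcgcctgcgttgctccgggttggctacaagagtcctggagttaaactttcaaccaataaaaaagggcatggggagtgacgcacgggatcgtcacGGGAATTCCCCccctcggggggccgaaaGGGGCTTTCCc
Ier3: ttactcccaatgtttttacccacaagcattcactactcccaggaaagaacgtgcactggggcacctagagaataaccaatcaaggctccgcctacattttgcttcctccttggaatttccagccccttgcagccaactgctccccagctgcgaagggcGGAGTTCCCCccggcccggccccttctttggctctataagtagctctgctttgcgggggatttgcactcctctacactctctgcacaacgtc
In the Nfkbia promoter the match GGAAATTCCC begins 29 bases before the start site. Tnfaip3 has 2 matches, of which GGAAATCCCC begins 12 bases before the start site. In Nfkb2 the run GGGAATTCCCC holds 2 overlapping matches, and a further match, GGGGCTTTCC, begins 11 bases before the start site. The single match in Ier3, GGAGTTCCCC, begins 92 bases before it. The 4 printed genes, an inhibitor, a signal editor, a subunit precursor and a survival gene, were taken from those with a match.

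Values are the deposited FPKM, fragments scaled by transcript length and by library total. How evenly the amplification of the blood libraries covered transcripts is unknown, so levels of different genes compare only roughly. The depth behind them is also unknown. The 15 blood libraries summed to between 677649 and 767866 FPKM and the 3 fibroblast libraries to between 524225 and 572069. Fibroblast markers summed to 33.1 FPKM or less in every blood library, and the 3 T cell markers were listed at 0 throughout blood. Macrophage and monocyte markers summed to 583 FPKM in uncultured ST-HSC, mostly Cd14 (542), against 179 in uncultured LT-HSC and 248 in uncultured MP. Mast cell and basophil markers summed to 551 FPKM in MP 2N and 1459 in MP 4N. Neutrophil markers summed to 4441 FPKM in LT-HSC 2N and 6349 in MP 2N, against 10253 and 6642 in the same cell types uncultured. The part of such cells in the levels of the 10 genes was not tested. Uncultured LT-HSC went against its label in part: beside the stem cell genes Ly6a (367 FPKM) and Slamf1 (34.6) it held the granule protease gene Elane at 13554 and Mpo at 7525 FPKM, near the 19235 and 13224 of MP and far above the 44.7 and 765 of ST-HSC. Blood identity genes (Ptprc, Vav1, Coro1a and Kit) summed to 9.70 to 216 FPKM in the LT-HSC and MP D libraries. In the ST-HSC D libraries they summed to 1993 and 2408, against 2110 to 4189 in N, and Coro1a made up most of these sums. In ST-HSC each of these genes was higher in 2D than in 2N, but only Kit was higher in 4D than in 4N. The myeloid progenitor genes were low in ST-HSC D too, summing to 142 FPKM in 2D against 5650 in 2N and to 59.4 in 4D against 9655 in 4N. Counts of called members are also given without uncultured LT-HSC or without the ST-HSC D libraries where that moved them by over 1.5 times, with the calls lost.

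All 10 genes had their highest level of the 18 libraries in uncultured ST-HSC, which was true of 9.28% of the 13117 genes whose mean over the libraries reached 1 FPKM. Nfkbia stood out by level: its FPKM was 1730.2 in ST-HSC, 415 in MP and 323 in LT-HSC, and in ST-HSC it ranked 34 among all symbols. For 8 of the 10 genes the order was ST-HSC, then LT-HSC, then MP, and for Nfkbia and Tnfaip3 MP stood above LT-HSC. With 1 library per cell type these uncultured levels have no replicate check, and fewer cells of a type cannot be told apart from less RNA per cell.

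**Figure D1:**
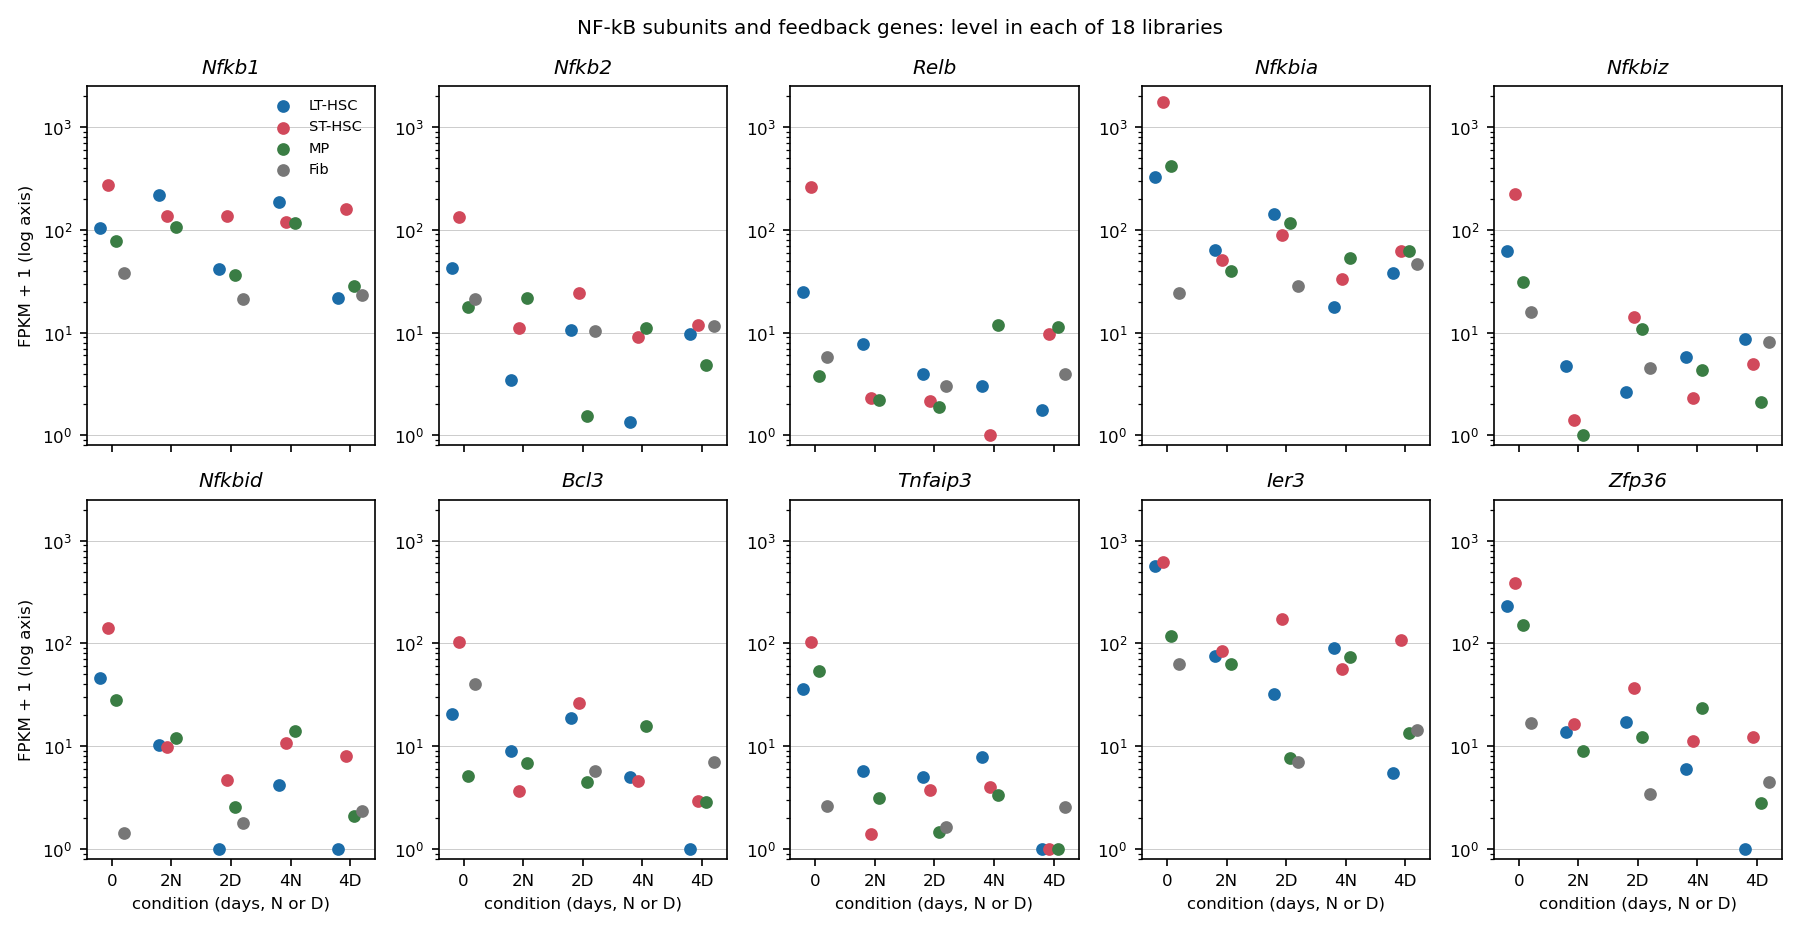
FPKM + 1 on a log axis for each of the 10 genes (panels) in each library, by condition on the x axis and cell type by colour; each point is 1 library. Uncultured ST-HSC is the highest point in every panel, at 1730.2 FPKM for Nfkbia and 102 for Tnfaip3.

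The subunit genes ranged widely in the uncultured cells. Relb was at 260 FPKM in ST-HSC, 23.8 in LT-HSC and 2.83 in MP, a ratio of 10.9 between ST-HSC and LT-HSC and of 91.9 between ST-HSC and MP. Nfkb2, the precursor of Relb's partner, was at 131, 41.3 and 16.8 FPKM in the same order, and Nfkb1 at 273, 102 and 76.5. Of the 3 subunits Relb thus separated the uncultured cell types most and Nfkb1 least. Among the nuclear IkB genes, Bcl3 was at 103 FPKM in ST-HSC, 19.4 in LT-HSC and 4.15 in MP. Nfkbiz was at 222, 61.1 and 30.1 FPKM and Nfkbid at 139, 44.6 and 27.1 in the same order. Among the brakes and early-response genes, Tnfaip3 was at 102 FPKM in ST-HSC, 53.1 in MP and 35.1 in LT-HSC, and Zfp36 at 390.4, 149 and 229. Ier3 was nearly level between ST-HSC (617 FPKM) and LT-HSC (562) and lower in MP (118).

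Under a rule chosen after these values were seen (a 4-fold difference in FPKM + 1 among genes at 10 FPKM or more in 1 of the 2 libraries), 3 of the 10 genes, Relb, Nfkbia and Bcl3, were higher in ST-HSC than in LT-HSC. Over all genes this share was 9.35%. The median log2 difference of the 10 genes was 1.63, beside 0.05 over all genes. Against MP the count was 7 of 10, beside 11.3% of all genes, with Nfkb1, Tnfaip3 and Zfp36 below 4-fold. Among other genes of the pathway, 4-fold differences from LT-HSC were more often higher than lower in ST-HSC. By the same rule 3 of 3 ligands were higher, 6 of 20 targets were higher and 2 lower, and 4 of 18 adaptors were higher and 2 lower. Of the kinases 2 of 9 were higher, and of the other brakes 2 of 10. Of the receptors it was 1 of 7 and of the IkB genes 1 of 3, with 0 lower in each of these lists. The 2 other subunit genes and the 3 relatives of Zfp36 and Ier3 gave 0 either way. Of the examples that follow, chosen after their values were seen, some were high in ST-HSC and some low. The receptor adaptor gene Traf1 was at 211 FPKM in ST-HSC against 8.79 in LT-HSC, the inhibitor gene Nfkbie at 165 against 17.7, the cytokine gene Ltb at 200.0 against 42.8 and the activation marker Cd83 at 600.2 against 9.46. The adhesion gene Vcam1 was at 1.23 FPKM in ST-HSC against 219 in LT-HSC, and the apoptosis regulator gene Cflar at 0.77 against 59.4. Immediate early genes, which cells also switch on during tissue dissociation, had their highest sum in LT-HSC. The 30 genes of that list, among them Fos, Jun and Egr1, summed to 5809 FPKM in LT-HSC, 5120.0 in ST-HSC and 1928 in MP, with 1 of 25 genes 4-fold higher in ST-HSC than in LT-HSC and a median log2 difference of -0.05. Against MP, 10 of 26 were 4-fold higher in ST-HSC, with a median log2 difference of 1.37, and their part in the higher levels of the 10 genes was not tested.

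**Figure D2:**
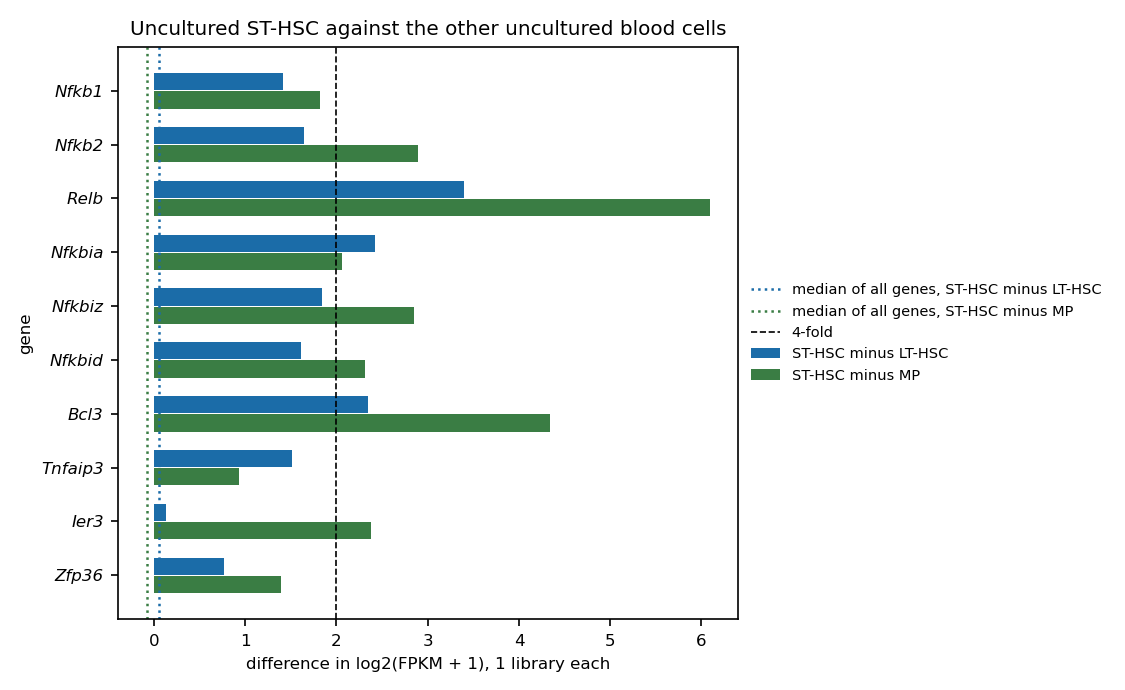
Difference in log2(FPKM + 1) between uncultured ST-HSC and uncultured LT-HSC (blue) or MP (green) for each of the 10 genes, 1 library each; dotted lines mark the median of all genes and the dashed line a 4-fold difference. Relb has the largest bar in both contrasts (3.39 and 6.09) and Ier3 the smallest against LT-HSC (0.13).

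The comparison of N cultures with uncultured cells asks what culture without induction did. In limma with cell type as block, 7 of the 10 genes fell (adjusted p under 0.05) and none rose, where 3.08% of the 12060 genes tested were called lower. The median log2 difference of the 10 genes was -2.93, beside 0.17 over all genes. All uncultured blood libraries lay above all 12 cultured ones for 5 genes (Nfkbia, Nfkbiz, Nfkbid, Tnfaip3 and Zfp36), as they did for 2.26% of genes. The count of 7 became 4 without uncultured LT-HSC, 3 without uncultured ST-HSC and 9 without uncultured MP.

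Zfp36, the mRNA decay factor, was at 4.95 to 22.6 FPKM in the 6 N libraries (median 11.6), against 149 to 390.4 in the uncultured cells. The groups did not overlap, and the fitted difference was -4.29 ± 0.459 on the log2(FPKM + 1) scale (SE, 9 libraries, limma adjusted p = 0.00122), lower in 6 of 6 N libraries. Nfkbia, the classical inhibitor, was at 16.7 to 62.2 FPKM in N (median 44.2), against 323 to 1730.2. Its fall of 3.95 ± 0.492 was seen in 6 of 6 libraries (limma adjusted p = 0.00250). Nfkbiz ranged in N from 0 in MP 2N to 4.85 FPKM in LT-HSC 4N, against 30.1 to 222 uncultured, and fell by 4.80 ± 0.708 (limma adjusted p = 0.00614). These 3 genes passed the threshold in every alternative tried, and every N library lay below every uncultured one for each of them.

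Tnfaip3, the ubiquitin-editing brake, was at 0.404 to 6.78 FPKM in N against 35.1 to 102 uncultured, and fell by 3.98 ± 0.597 (limma adjusted p = 0.00662). Without uncultured ST-HSC its adjusted p was 0.0508. Nfkbid was at 3.17 to 13.0 FPKM in N against 27.1 to 139, and Ier3 at 56.0 to 89.3 against 118 to 617. Nfkbid fell by 2.56 ± 0.518 (limma adjusted p = 0.0191) and Ier3 fell by 2.24 ± 0.399 (adjusted p = 0.0123), both in 6 of 6 libraries. Both calls were lost without uncultured LT-HSC (adjusted p = 0.0768 and 0.0651) and without uncultured ST-HSC (0.118 and 0.0827). In N, Ier3 kept a higher level than the other feedback genes, with a median of 73.9 FPKM. In D its median was 21.9 FPKM, below the 74.2 of Nfkbia.

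The subunit genes split. Nfkb1 was not called: it was at 105 to 219 FPKM in N against 76.5 to 273 uncultured, the groups overlapped, and the fitted difference was 0.13 ± 0.356 (limma adjusted p = 0.836). Nfkb2 was at 0.347 to 20.8 FPKM in N against 16.8 to 131 and fell by 2.74 ± 0.711 (adjusted p = 0.0395), lower in 5 of 6 libraries. That call is near the threshold and was lost with 0.1 added before the log (adjusted p = 0.0653), without the filter on low values (0.0722), without limma's trend and robust options (0.0743) and when any of 7 libraries was left out. Relb was at 0 to 10.9 FPKM in N and Bcl3 at 2.66 to 14.7. Their differences of -3.12 ± 1.19 and -1.74 ± 0.839 did not pass (adjusted p = 0.127 and 0.209), and both passed without uncultured MP, where they had started low.

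**Figure D3:**
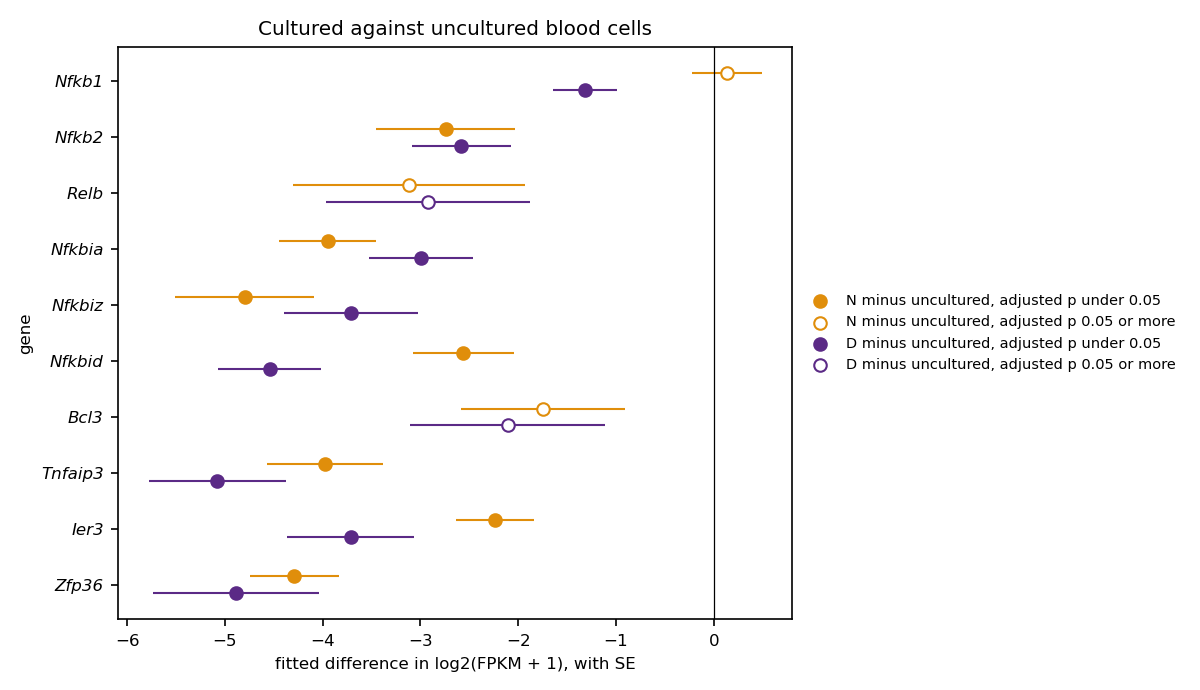
Fitted difference in log2(FPKM + 1), with SE, of N (orange) and D (purple) blood libraries against uncultured ones for each of the 10 genes; filled points have an adjusted p under 0.05. All 10 genes lie below 0 in D and all but Nfkb1 (0.13) in N.

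D cultures were compared with the same uncultured libraries, so the values stand beside those for N without being independent of them. In D, 8 of the 10 genes fell and none rose, where 6.17% of the 12539 genes tested were called lower. The median difference of the 10 genes was -3.35, beside 0.23 over all genes. The 2 genes not called were Relb (-2.92 ± 1.04, limma adjusted p = 0.0814) and Bcl3 (-2.11 ± 1.0, adjusted p = 0.171). Relb passed without uncultured MP (adjusted p = 0.0221) or without MP 4D (0.0375). The count of 8 became 4 without uncultured LT-HSC, where limma adjusted p was 0.142 for Nfkb1, 0.0511 for Nfkbiz, 0.0529 for Ier3 and 0.0557 for Zfp36. It also became 4 without both ST-HSC D libraries, where it was 0.0669 for Nfkb1, 0.058 for Nfkb2, 0.0585 for Nfkbia and 0.059 for Nfkbiz.

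Tnfaip3 was listed at 0 in all 3 of the 4D libraries and at 0.481 to 3.99 FPKM in 2D, and it had the largest fitted fall of the 10 genes, 5.08 ± 0.700 (limma adjusted p = 0.00227). Since some libraries are at 0, that size depends on the 1 added before the log. Zfp36 was at 0 to 36 FPKM in D and fell by 4.89 ± 0.846 (adjusted p = 0.00593). Nfkbid was at 0 in both LT-HSC D libraries and reached 7.02 FPKM in ST-HSC 4D, and it fell by 4.54 ± 0.525 (adjusted p = 8.26e-04). Ier3 fell by 3.71 ± 0.649 (adjusted p = 0.00619) and Nfkbiz by 3.71 ± 0.687 (adjusted p = 0.00763). For these 5 genes the D libraries were lower than their uncultured cell type in 6 of 6 cases.

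Nfkbia was at 37.1 to 141 FPKM in D and fell by 2.99 ± 0.534 (limma adjusted p = 0.00683). Nfkb2 was at 0.534 to 23.0 FPKM and fell by 2.58 ± 0.503 (adjusted p = 0.00939). Nfkb1, unlike in N, was lower in D: its levels were 20.9 to 157 FPKM, and the difference of -1.32 ± 0.328 passed (adjusted p = 0.0248), but, beside the 2 cases above, not without the trend and robust options (0.0587), without uncultured MP (0.0581) or without MP 4D (0.0542). In ST-HSC its 134 and 157 FPKM in D lay within the range of N.

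Other genes of the pathway were read from lists. The 124 other genes were subunits, IkB proteins, kinases, adaptors, receptors, ligands, other brakes and targets, with 6 relatives of Zfp36 and Ier3 counted among them. Of these, 102 were tested in N against uncultured, of which 3 rose and 17 fell. In D, 94 were tested, of which 1 rose and 30 fell. The remaining subunit genes Rela and Rel fell in N, Rela by 1.48 ± 0.336 (limma adjusted p = 0.0259) and Rel by 2.67 ± 0.618 (adjusted p = 0.0272), although Rela stayed between 47.3 and 85.9 FPKM while Rel was at 0.611 or less. In D, Rel fell by 2.44 ± 0.655 (adjusted p = 0.0320) and Rela differed by -1.13 ± 0.377 without passing (adjusted p = 0.0665). Of the 13 kinases, none was called in N by limma (2 at an unadjusted p under 0.05), and 2, Ikbkb and Ikbke, fell in D. Chuk and Ikbkg, the other core genes of the IkB kinase complex, differed by 0.19 and 0.15 in N with adjusted p of 0.772 and 0.879. The kinase gene Map3k14 of the non-canonical branch differed by -1.86 in N (adjusted p = 0.0635), and the inhibitor gene Nfkbib by -0.37 (adjusted p = 0.499).

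The 11 genes for ligands that start the pathway summed to 21.0 to 279 FPKM in uncultured blood cells, 11.8 to 90.6 in N and 0 to 43.3 in D. Tnf was at 9.60 FPKM or less in every blood library, and Il1b was listed at 0 in all 18. Of the 34 target genes, 8 of 26 tested fell in N and 3 rose, and 12 of 24 fell in D and 1 rose. The chemokine gene Cxcl10 fell by 6.64 ± 0.700 in N (limma adjusted p = 0.00122), from 90.1 to 276 FPKM uncultured to 5.90 or less. The chemokine gene Ccl4 fell by 4.86 ± 0.535 and the adhesion gene Icam1 by 3.32 ± 0.772. The 3 that rose in N were Il6, Bcl2l1 and Tnfsf9, a cytokine, a survival protein and a costimulatory ligand. Il6, at 0 in all uncultured blood libraries, was at 2.80 to 9.78 FPKM in N and at 0 in every D library.

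Immediate early genes fell beside them. Of 26 tested genes of that list, 21 fell in N and 20 in D, with median differences of -3.81 and -3.24, and the list summed to 1928 to 5809 FPKM uncultured, 236 to 336 in N and 331 to 643 in D. Fos fell by 7.58 ± 0.766 and Jun fell by 6.35 ± 0.486 in N. Their part in the fall of the 10 genes was not tested. Of the 6 myeloid progenitor genes, none was called in N by limma (1 at an unadjusted p under 0.05), and 6 of 6 fell in D. In N their sum moved in opposite directions by cell type. It went from 42338 FPKM uncultured to 134 and 181 in LT-HSC 2N and 4N. In ST-HSC it went from 1630 to 5650 and 9655, and in MP from 59193 to 34937 and 30651.

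D and N libraries of the same cell type and day form 6 pairs, which show what came with induction on top of culture. Only Nfkbia rose and only Nfkbid fell among the 10 genes, where 4.53% of 12254 genes were called higher and 4.44% lower, so the members were called about as often as all genes, 1 of 10 each way. Nfkbia was higher in D in 6 of 6 pairs: at day 2 LT-HSC held 141 FPKM in D and 62.2 in N, ST-HSC 87.3 and 49.4, and MP 117 and 39.0. At day 4 the D and N values were 37.1 and 16.7 in LT-HSC, 60.9 and 32.4 in ST-HSC, and 61.1 and 52.0 in MP. The ranges of D and N overlapped, and the paired difference was 0.96 ± 0.223 (limma adjusted p = 0.0279). The inhibitor gene therefore stood higher with doxycycline than without it in each pair while staying below every uncultured library.

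Nfkbid moved the other way, lower in D in 6 of 6 pairs. At day 2 the D and N values were 0 and 9.30 FPKM in LT-HSC, 3.71 and 8.87 in ST-HSC, and 1.55 and 10.9 in MP. At day 4 they were 0 and 3.17 in LT-HSC, 7.02 and 9.77 in ST-HSC, and 1.10 and 13.0 in MP. The difference was -1.98 ± 0.453 (limma adjusted p = 0.0260). Both calls are near the threshold. Nfkbia lost its call without the trend and robust options (adjusted p = 0.0592), without LT-HSC at day 2 (0.0846) or day 4 (0.0647), without MP at day 2 (0.0904), without ST-HSC at day 4 (0.0633) and without both ST-HSC pairs (0.0869). Nfkbid lost its call when either LT-HSC pair (0.0739 and 0.0602) or either MP pair (0.0792 and 0.0811) was left out.

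**Figure D4:**
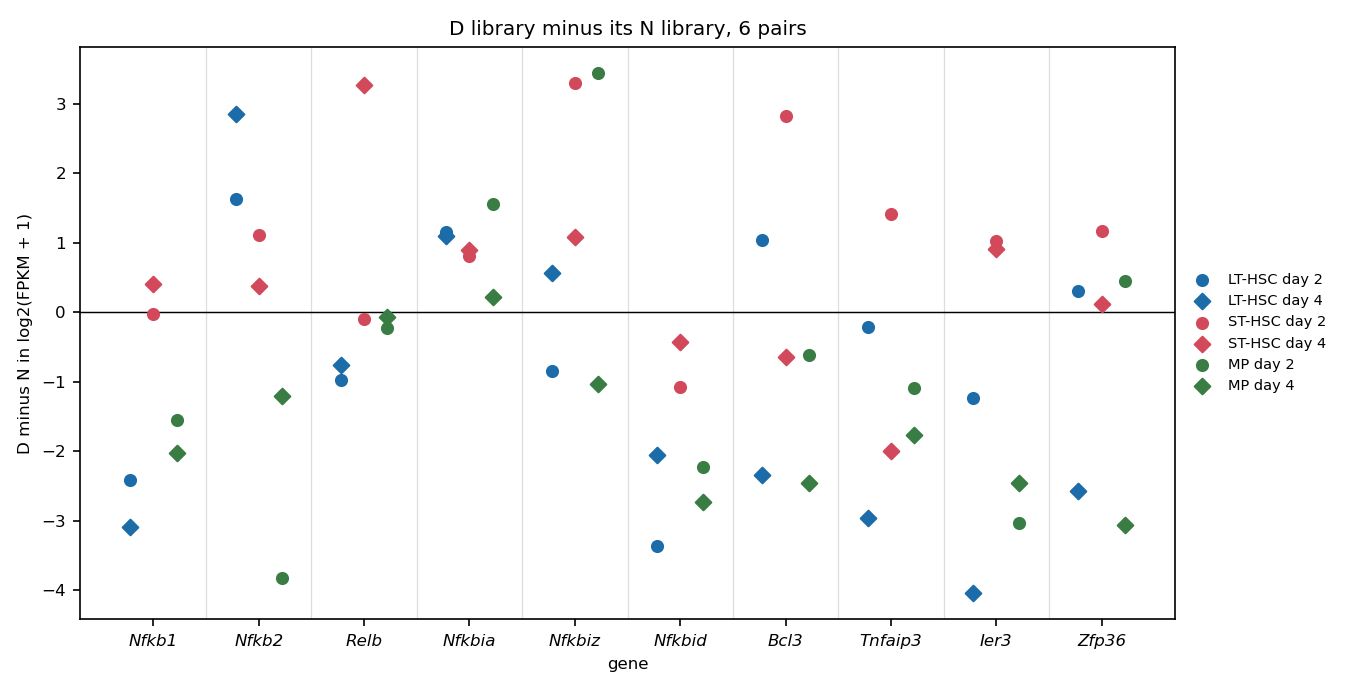
D minus N in log2(FPKM + 1) for each of the 10 genes and each pair of libraries, coloured by cell type (circles day 2, diamonds day 4). All 6 points lie above 0 for Nfkbia and below 0 for Nfkbid, and for Ier3 the ST-HSC points (1.02 and 0.92) lie above 0 while LT-HSC and MP lie between -1.24 and -4.04.

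For Ier3 and Nfkb1 the values in the ST-HSC pairs stood apart from those in the other cell types. Ier3 was at 31.4 FPKM in LT-HSC 2D against 75.3 in 2N and at 4.48 in 4D against 89.3 in 4N. In MP it was at 6.66 against 61.8 and at 12.4 against 72.4. In ST-HSC it was instead higher with doxycycline, at 171 against 83.9 and 107 against 56.0. Nfkb1 was at 40.4 against 219 and 20.9 against 186 FPKM in LT-HSC and at 35.1 against 105 and 27.7 against 116 in MP, but at 134 against 136 and 157 against 118 in ST-HSC. Over all 6 pairs neither was called (Ier3 -1.47 ± 0.646, limma adjusted p = 0.201, and Nfkb1 -1.45 ± 0.436, adjusted p = 0.0702). Nfkb1 passed when either ST-HSC pair was left out (adjusted p = 0.0457 for day 2 and 0.0330 for day 4). Leaving out both ST-HSC pairs was chosen after these values were seen, so the p-values of that fit depend in part on the choice. In it both genes fell, Ier3 by 2.69 (limma adjusted p = 0.0147) and Nfkb1 by 2.27 (adjusted p = 0.00643). The calls were then 3 lower, the third being Nfkbid, and 0 higher.

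The difference itself was tested in a fit added after these values were seen, ST-HSC against LT-HSC and MP in their D minus N. No gene of 12254 passed (0%, with 1004 at an unadjusted p under 0.05), and Ier3 differed by 3.66 ± 0.723 (limma adjusted p = 0.232) and Nfkb1 by 2.46 ± 0.499 (adjusted p = 0.233). The direction was not particular to these genes: 9 of the 10 had a positive estimate, with a median of 1.86 beside -0.04 over all genes. Blood identity genes also stood higher in the D libraries of ST-HSC than in those of LT-HSC and MP. Ptprc was at 55.9 and 22 FPKM in the ST-HSC D libraries and at 0 to 6.70 in the others, and Vav1 at 69.6 and 40.1 against 0 to 15. Unlike Ier3 and Nfkb1, both were lower in ST-HSC 4D than in 4N, where they were at 30.9 and 95.5. The part of blood identity in the Ier3 and Nfkb1 levels was not tested.

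The other 6 genes gave no call between D and N. Nfkb2 was higher in D in both LT-HSC pairs (9.59 against 2.43 FPKM and 8.77 against 0.347) and both ST-HSC pairs (23.0 against 10.1 and 10.8 against 8.04), and lower in both MP pairs (0.534 against 20.8 and 3.86 against 10.2). In the interaction fit of MP against the stem cells its difference was -4.01 ± 1.0 (limma adjusted p = 0.371), and no gene passed (0%, 1018 at an unadjusted p under 0.05). Tnfaip3 was lower in D in 5 of 6 pairs (-1.10 ± 0.577, adjusted p = 0.287) and Zfp36 in 2 of 6 (-0.60 ± 0.586, adjusted p = 0.595). Relb stood within 1 log2 unit of its N library in 5 pairs, the exception being ST-HSC at day 4, with 8.66 FPKM in D and 0 in N. Nfkbiz (1.09 ± 0.662, adjusted p = 0.364) and Bcl3 (-0.36 ± 0.672, adjusted p = 0.796) had pairs in both directions. Beside the 10 genes, 3 of 90 tested pathway genes and relatives of Zfp36 and Ier3 rose in D against N and 15 fell. The immediate early list had 3 of 24 higher (Jun, Btg2 and Nr4a1) and 0 lower. Jun rose by 2.61 ± 0.419 (adjusted p = 0.00542), and its part in the level of Nfkbia was not tested.

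Day of culture and cell type gave no call among the 10 genes. Between day 4 and day 2 limma called 2.11% of all genes and no member, with 2 members at an unadjusted p under 0.05. The smallest p belonged to Nfkbia, lower at day 4 in 5 of 6 comparisons (-0.89 ± 0.298, limma adjusted p = 0.174), and to Zfp36, also lower in 5 of 6 (-1.36 ± 0.576, adjusted p = 0.274). Whether D minus N differed between days gave no call among all genes (0%, 511 at an unadjusted p under 0.05), with Bcl3 at -2.90 ± 1.03 and Zfp36 at -2.48 ± 0.912 (adjusted p = 0.989 for both). Between MP and the stem cells no member was called by limma (1 at an unadjusted p under 0.05), beside 0.297% of all genes. The smallest p there belonged to Ier3 (-1.36 ± 0.631, adjusted p = 0.368) and Nfkb1 (-0.85 ± 0.419, adjusted p = 0.398). ST-HSC against LT-HSC gave no call among 12419 genes (0%, 811 at an unadjusted p under 0.05). In that contrast 9 of the 10 genes had a positive estimate, led by Nfkb2 (1.51 ± 0.427, adjusted p = 0.600) and Nfkbid (1.63 ± 0.499, adjusted p = 0.657). The test of whether the change from uncultured to N differed between MP and the stem cells called no gene (0%, 1312 at an unadjusted p under 0.05). The members with the smallest p there were Ier3 at 2.15 ± 0.516 and Nfkb2 at 3.82 ± 0.964 (adjusted p = 0.230 and 0.240).

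Fibroblasts have no N libraries, so culture and induction cannot be told apart there. Uncultured fibroblasts held Ier3 at 61.5 FPKM, Bcl3 at 39.1, Nfkb1 at 36.7, Nfkbia at 23.3, Nfkb2 at 20.3, Zfp36 at 15.8 and Nfkbiz at 14.8, while Relb (4.76), Tnfaip3 (1.65) and Nfkbid (0.436) were scarce. A 4-fold change at both days among genes at 10 FPKM or more was used as a description, since there is 1 library per condition and no test. Of the 7 genes above that level, 2 were lower (4.54% of 8842 genes) and 0 higher (3.35%). Ier3 went from 61.5 to 6.01 FPKM at 2D and 13.3 at 4D, and Bcl3 from 39.1 to 4.76 and 6.02. Zfp36 fell just short at 4D, going from 15.8 to 2.47 and 3.51 FPKM. Nfkbia went the other way, from 23.3 to 27.2 and 45.3 FPKM. The immediate early list summed to 941 FPKM in uncultured fibroblasts and to 323 and 366 in D, and its part in these changes was not tested.

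The change from uncultured to D differed between fibroblasts and blood for 1 of the 10 genes, where 0.944% of 13235 genes were called. Nfkbid, at 0.436, 0.811 and 1.37 FPKM in fibroblasts, differed by 5.07 ± 0.917 (limma adjusted p = 0.0360). This value sets a gene near 0 in fibroblasts beside its fall in blood, and it did not pass with 0.1 added before the log (adjusted p = 0.158) or without uncultured LT-HSC, any 1 of the 6 blood D libraries or either fibroblast D library (0.0503 to 0.180).

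Likeness between the 10 genes was measured across blood libraries. The median Pearson r of log2(FPKM + 1) over the 45 pairs of members was 0.648 (range 0.142 to 0.853) with all 15 libraries and 0.189 (range -0.350 to 0.916) over the 12 cultured ones. These values are descriptions over libraries that share cell types and culture conditions. Tnfaip3 and Zfp36 were each other's nearest member (r = 0.853), as were Nfkbid and Ier3 (0.841). Nfkbia lay nearest Zfp36 (0.836) and Nfkb1 nearest Ier3 (0.813), and the lowest of all pairs was Nfkb1 with Nfkbia. Among all other genes, those most like the members' mean were Csrnp1 (r = 0.964), Bcl10 (0.949), Per1 (0.936), Irak2 (0.932) and Ier2 (0.928), over 15 libraries. Csrnp1, for example, was at 38.8 to 420.1 FPKM in uncultured and 0.876 to 20.1 in cultured blood cells.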

How the data were processed

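The deposited values are FPKM, 1 per gene and library, made by the authors from mm9 alignments by TopHat and Cufflinks, per the submitters' processing notes. Their versions and the annotation are not stated. FPKM as the unit was inferred from the values; low ones showed no common step, so neither reads nor depth could be recovered. The 158 repeated symbols were summed.

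Values were log2(FPKM + 1). In each fit, genes averaging at least 1 FPKM were taken forward and tested with limma 3.58.1 (R 4.3.3, trend and robust options, two-sided, Benjamini-Hochberg over all tested genes, threshold 0.05), with cell type, pair or condition as block. The fits without an interaction were run on known shifts in simulated normal noise, and the interaction fits were not. Promoters came from RefSeq, on GRCm38.p6, not the build of the values. The 10 genes and all lists were chosen with earlier results of these data known. Named genes are all 10 members, up to 4 called genes of each list by smallest p, core pathway genes and the 5 genes most like the members; genes named for uncultured ST-HSC and blood identity were chosen after their values were seen. Groups were taken from the titles. Alternatives were 0.1 added, no filter, median scaling, limma without its options and leaving out libraries. Tables and figures used Python 3.11.15, pandas 2.3.3, numpy 2.4.6 and matplotlib 3.10.9.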

Additional observations from a re-analysis of the deposited data

Results flagged for a closer look

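Ier3 moved in opposite directions with doxycycline in different cell types. In both ST-HSC pairs D was above N, and in both LT-HSC and both MP pairs it was below. The mean D minus N (log2(FPKM + 1)) in LT-HSC was lower than that in ST-HSC, by a difference of -3.61, and that in MP lower than in ST-HSC by a difference of -3.71. The fit of ST-HSC against the other cell types did not pass (limma adjusted p = 0.232).

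Nfkb2 was above N in both LT-HSC and both ST-HSC pairs and below it in both MP pairs. The mean D minus N in LT-HSC exceeded that in MP by 4.76, and the difference of MP from ST-HSC was -3.26. The fit of MP against both stem cell types did not pass (limma adjusted p = 0.371).

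The change of Nfkbid from uncultured to D differed between fibroblasts and blood by 5.07 in the test of that difference (limma adjusted p = 0.0360), with a level of 1.37 FPKM or less in every fibroblast library.

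No library was flagged as standing apart in the 20 sets of 6 libraries examined (each of the 10 genes in N and in D), where chance alone would mark about 1 in 20. Each set mixes cell types and days, so this check cannot show that no library is aberrant.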

How the results depend on the processing

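Zfp36, Nfkbia and Nfkbiz fell in N, and Nfkbid and Tnfaip3 in D, under every alternative run. The number of members lower in N ranged from 3 to 9 and in D from 4 to 8 over fits that each left out 1 library, and was 4 in D without both ST-HSC D libraries (an alternative chosen after seeing the data). Between D and N, leaving out 1 pair gave 0 to 1 higher and 0 to 2 lower, limma without its options gave 0 higher, and leaving out both ST-HSC pairs, also chosen afterwards, gave 0 higher and 3 lower. The single member called between fibroblasts and blood became 0 with 0.1 added and 0 to 1 when 1 library was left out. Among uncalled D against N values, Nfkb2 ranged from -0.38 to 0.96 over pairs left out and was -0.14 without both ST-HSC pairs, Relb ranged from -0.42 to 0.43 and was -0.51 without them, and Bcl3 ranged from -1.0 to 0.056. The uncalled Nfkb1 in N became -0.0042 with median scaling and ranged from -0.29 to 0.75 over single libraries left out. The cause of these changes was not tested. Median scaling moved the median of all genes by -0.12 in N against uncultured and -0.10 in D against uncultured, and changed no call. Counts over all genes moved more: 529 to 1108 for D against N (1099 under the settings used in the report), 137 to 1787 for N against uncultured (1072), 512 to 1847 for D against uncultured (1922), 138 to 261 between days (259), 0 to 39 for MP against stem cells (37) and 0 to 555 for fibroblasts against blood (125). Counts for the comparisons without calls reached 20 at most. Fits without uncultured MP, or without uncultured fibroblasts, were not possible for the contrasts that need them. Replicate numbers, all 1, pair no libraries, and the pairs of D and N were matched by cell type and day. Depth is unknown, a value listed at 0 can be a failed estimate, and of the members' D against N values, 0.1 added in place of 1 moved Tnfaip3 (-1.10 to -2.57) and Nfkbid (-1.98 to -3.25) most.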
